A study of Homo sapiens with 15 samples.

Results

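The BCL2 family list held 10 genes that control the mitochondrial route to apoptosis. Its members were chosen by gene symbol in the platform annotation, and 9 of the 10 were measured among 17687 genes: BCL2, BCL2L1, MCL1, BAX, BAK1, BOK, BID, PMAIP1 and BCL2L11. BBC3 (PUMA) is not analysed here. Expression was read on 15 whole-transcript Affymetrix arrays of C42B cells, an LNCaP-derived prostate cancer line that grows without androgen. Cells had been exposed for 6 h to 10 µM enzalutamide with 15 µM PF-543 (3 arrays), 10 µM enzalutamide with 15 µM ABC294640 (3 arrays), 10 µM enzalutamide (2 arrays), 15 µM PF-543 (3 arrays), 15 µM ABC294640 (1 array) or 0.125% dimethyl sulfoxide (DMSO) vehicle (3 arrays). All groups shared the cell line, the medium with fetal bovine serum and the harvest time, and for treated wells the labels give no vehicle percentage. Enzalutamide blocks the androgen receptor, PF-543 inhibits sphingosine kinase 1 and ABC294640 (opaganib) inhibits sphingosine kinase 2. Nothing in the labels says that replicates came from separate cultures, and p-values then reflect only the spread among these arrays, which may be technical.

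Proteins of this family decide whether the outer mitochondrial membrane is opened, which releases cytochrome c and starts the caspases. BCL2, BCL2L1 (BCL-XL) and MCL1 are prosurvival members that hold the effectors in check. BAX, BAK1 and BOK are the effectors that form the pore, and BID, PMAIP1 (NOXA), BCL2L11 (BIM) and BBC3 are BH3-only proteins that carry a death signal to the others. In prostate cancer, BCL2 is known for its presence in tumours that grow on after androgen withdrawal. MCL1, BCL2L1 and BCL2L11 are each known to have splice forms of differing action. A gene had 1 probe set here, so splice forms were not told apart, and protein was not measured. In RNA from whole wells, fewer cells of a kind and less RNA per cell cannot be told apart either.

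Values are log2 expression per probe set, in which a difference of 1 is a doubling. A comparison was called at an adjusted p under 0.05, from limma fitted to all 15 arrays with Benjamini-Hochberg adjustment over 17687 genes. The cells had the markers of luminal prostate epithelium. The 9 measured markers of that list, with the keratins KRT8 and KRT18, EPCAM and KLK3 among them, lay between 8.84 and 16.23. The 18 measured markers of basal, neuroendocrine, stromal, endothelial and blood cells lay between 3.26 and 9.62, and between 3.26 and 7.1 with the collagen gene COL1A2 left aside. The DMSO arrays stood apart from the 12 treated arrays, at 18.87 to 24.8 on the first principal component against -11.62 to 0.0296 for the treated arrays. Differences from DMSO are therefore given together with comparisons whose differences used no DMSO array.

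Few members of the family passed the test, as was so for genes at large. In the 5 comparisons of a treated group with DMSO, 1 call was made over the 9 members: BOK was higher with enzalutamide. Each of these comparisons called at most 2.02% of all genes. In the 6 comparisons whose differences used no DMSO array, no member was called, beside at most 0.384% of all genes in each. BOK also stood higher and BCL2 lower when the mean of the 5 treated groups was set against DMSO, a comparison chosen after the values were seen. The prosurvival genes BCL2L1 and MCL1, the effectors BAX and BAK1 and the BH3-only genes BID, PMAIP1 and BCL2L11 passed in none of these comparisons.

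**Figure D1:**
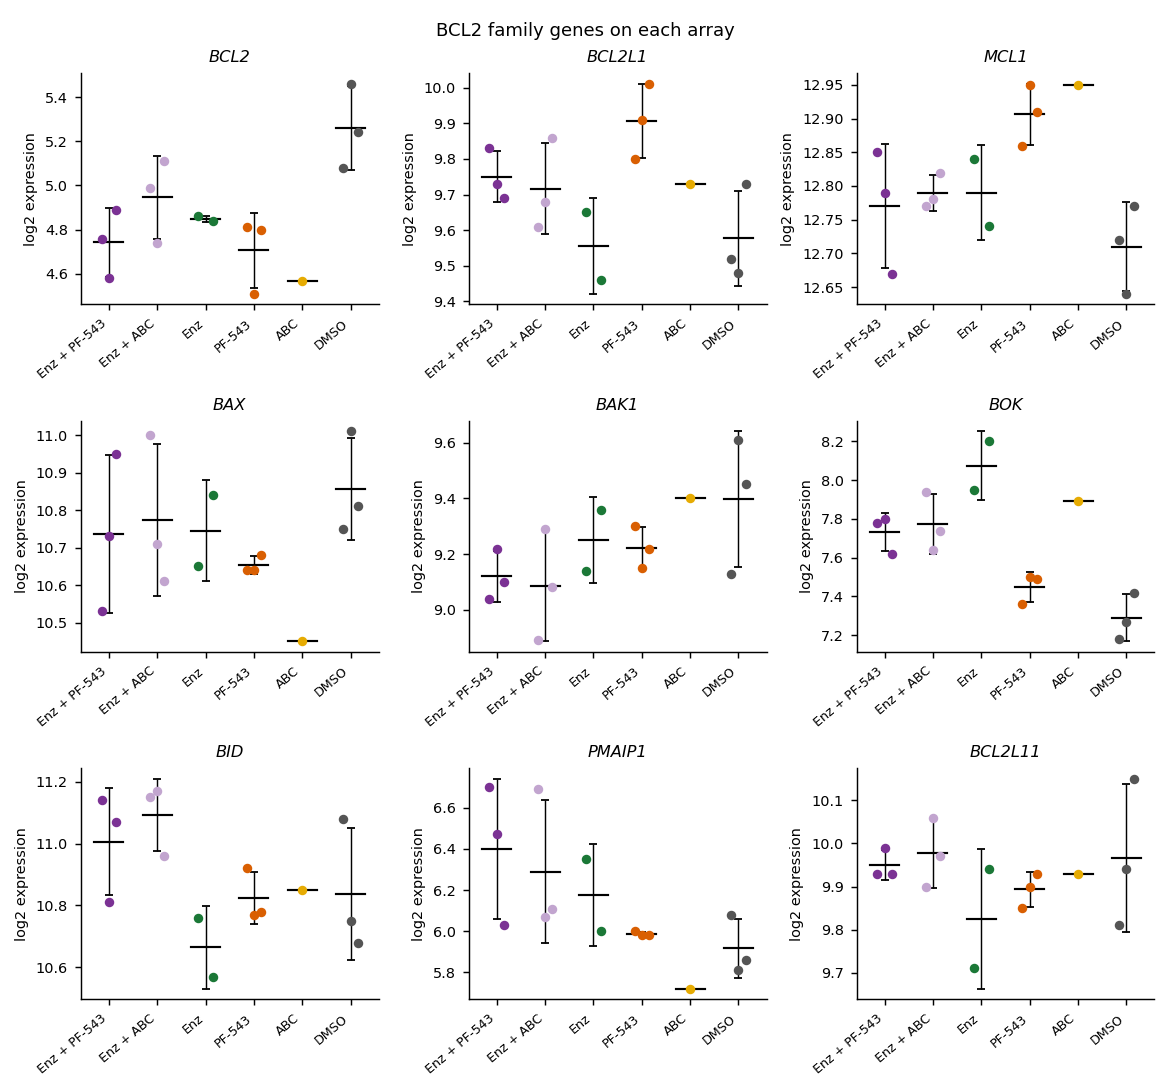
Log2 expression (vertical axis, a scale per gene) of the 9 measured members on each of the 15 arrays, by group (Enz, enzalutamide; ABC, ABC294640). Points are arrays, horizontal bars are group means and whiskers are SD, with no whisker for the 1 ABC294640 array. BOK lay at 7.36 to 8.20 on the treated arrays and 7.18 to 7.42 on the DMSO arrays, with PF-543 replicate 1 as the overlap, and BCL2 lay at 4.51 to 5.11 on the treated arrays and 5.08 to 5.46 on the DMSO arrays, with replicate 3 of enzalutamide with ABC294640 as the overlap.

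Among the effectors, BOK was called. BOK is related to BAX and BAK1, can open the outer membrane by itself, and is known to be kept low by degradation at the endoplasmic reticulum. It read 7.78, 7.80 and 7.62 with enzalutamide and PF-543, 7.94, 7.64 and 7.74 with enzalutamide and ABC294640, 7.95 and 8.20 with enzalutamide alone, 7.36, 7.5 and 7.49 with PF-543, 7.89 with ABC294640, and 7.18, 7.27 and 7.42 with DMSO. Both enzalutamide arrays were above every array of the other groups, the lower of them by 0.01 over the highest array of the combination with ABC294640. The arrays of enzalutamide with either inhibitor and the ABC294640 array were also above every DMSO array, while PF-543 alone overlapped with DMSO. BOK averaged 8.08 ± 0.18 (SD, n = 2) with enzalutamide and 7.29 ± 0.12 (SD, n = 3) with DMSO, a 1.72-fold rise (log2 0.79, SE 0.12, limma adjusted p = 0.0144). In that comparison 0.311% of all genes were called, and 0.124% were called higher.

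The order of the BOK group means, low to high, was DMSO, PF-543, enzalutamide with PF-543, enzalutamide with ABC294640, ABC294640 and enzalutamide. No difference between neighbours in this order passed where it was fitted, and ABC294640 against enzalutamide was not fitted. The combinations, at 7.73 ± 0.10 with PF-543 and 7.77 ± 0.15 with ABC294640 (SD, n = 3 each), differed by log2 -0.04 (95% interval -0.28 to 0.20, limma adjusted p = 0.965). Against DMSO the combination with PF-543 was at log2 0.44 (SE 0.11, adjusted p = 0.0564), the combination with ABC294640 at 0.48 (SE 0.11, adjusted p = 0.067), ABC294640 at 0.60 (SE 0.16, adjusted p = 0.272) and PF-543 at 0.16 (SE 0.11, adjusted p = 0.519). The enzalutamide call depended on single arrays. It was lost without DMSO replicate 1 (adjusted p = 0.0553), without DMSO replicate 2 (adjusted p = 0.0633), without enzalutamide replicate 1 (adjusted p = 0.0502) and without enzalutamide replicate 2 (adjusted p = 0.177), while the log2 difference stayed between 0.66 and 0.91.

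Where no DMSO array entered the difference, BOK was not called for enzalutamide. The spread in these tests still came from all 15 arrays. The mean enzalutamide effect in inhibitor-treated cells was log2 0.08 (95% interval -0.12 to 0.29, limma adjusted p = 0.921). That mean joined a difference of 0.28 on top of PF-543 (SE 0.11, adjusted p = 0.505), where the arrays of the groups did not overlap, and one of -0.12 on top of the 1 ABC294640 array (SE 0.16, adjusted p = 0.974). Whether the enzalutamide effect on BOK depended on the inhibitor was tested directly, in interactions that do include the DMSO arrays. The one with ABC294640 also rests on the 1 ABC294640 array. The interaction was log2 -0.50 with PF-543 (unadjusted p = 0.00951, limma adjusted p = 0.481) and -0.90 with ABC294640 (unadjusted p = 0.00056, adjusted p = 0.377), neither of them called. With limma no gene of 17687 was called for either interaction (0%). BOK and BCL2 were the members with an unadjusted p under 0.05 for each, beside 8.07% of all genes for PF-543 and 8.25% for ABC294640.

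A promoter window of BOK is shown because BOK held the call under an androgen receptor blocker. It covers the 250 bases before the 1 start that the promoter table from RefSeq uses for the gene (GRCh38.p14, chr2:241558495-241558744, plus strand, 64.4% G and C). That start lies within the listed span of BOK, which begins farther upstream, so the window is inside the gene. Of the 8 members with a sequence in the table, the window lay inside the listed gene for BOK and BCL2, partly inside for BID and before the gene for the other 5. It was searched on both strands for the androgen receptor hexamer AGAACA, the cAMP response element TGACGTCA and the C/EBP-ATF composite site TGATGNAA, with matches to be set in capitals. There was no match. Over such windows of 27305 genes, 12.4% held the hexamer, 1.77% the response element and 3.19% the composite site. None of these 8 members had a match to any of them, and the windows say nothing of sites farther away.
BOK: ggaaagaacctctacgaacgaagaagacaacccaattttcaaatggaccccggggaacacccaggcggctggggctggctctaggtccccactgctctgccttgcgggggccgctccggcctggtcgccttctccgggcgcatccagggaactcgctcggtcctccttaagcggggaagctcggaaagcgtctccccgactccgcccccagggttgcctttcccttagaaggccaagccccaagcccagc

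BAX and BAK1, the main pore formers, passed in no comparison. BAX read 10.53, 10.73 and 10.95 with enzalutamide and PF-543, 11, 10.71 and 10.61 with enzalutamide and ABC294640, 10.65 and 10.84 with enzalutamide, 10.64, 10.64 and 10.68 with PF-543, 10.45 with ABC294640, and 10.75, 11.01 and 10.81 with DMSO. Every treated group mean was below the DMSO mean of 10.86, and 9 of the 12 treated arrays were below every DMSO array, but the combinations and enzalutamide overlapped with DMSO. The share of all genes with such a count is not given here, so it cannot be read as particular to BAX. The mean of the 5 treated groups differed from DMSO by log2 -0.19 (95% interval -0.41 to 0.04, limma adjusted p = 0.351). BAK1 read 9.04, 9.22 and 9.10 with enzalutamide and PF-543, 8.89, 9.29 and 9.08 with enzalutamide and ABC294640, 9.14 and 9.36 with enzalutamide, 9.30, 9.15 and 9.22 with PF-543, 9.40 with ABC294640, and 9.13, 9.61 and 9.45 with DMSO. The DMSO arrays of BAK1 ran from 9.13 to 9.61, and every treated group overlapped with them. Its difference from DMSO was log2 -0.28 with the PF-543 combination (95% interval -0.57 to 0.01, adjusted p = 0.288) and -0.31 with the ABC294640 combination (95% interval -0.60 to -0.02, adjusted p = 0.28).

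Of the prosurvival genes, BCL2 was the one whose treated and DMSO arrays lay farthest apart. It read 4.76, 4.58 and 4.89 with enzalutamide and PF-543, 4.99, 4.74 and 5.11 with enzalutamide and ABC294640, 4.86 and 4.84 with enzalutamide, 4.81, 4.51 and 4.80 with PF-543, 4.57 with ABC294640, and 5.08, 5.46 and 5.24 with DMSO. Of the 12 treated arrays 11 were below every DMSO array, a pattern that 3.9% of all genes shared, and 11 of 12 were above every DMSO array for BOK, as for 4.57% of all genes. BCL2 was at log2 -0.52 with the PF-543 combination (SE 0.13, limma adjusted p = 0.0638), -0.31 with the ABC294640 combination (SE 0.13, adjusted p = 0.276), -0.41 with enzalutamide (SE 0.15, adjusted p = 0.267), -0.55 with PF-543 (SE 0.13, adjusted p = 0.0856) and -0.69 with ABC294640 (SE 0.19, adjusted p = 0.293), none of which passed. These differences share the DMSO arrays.

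Set as 1 mean against DMSO, the 5 treated groups had BCL2 lower by 1.41-fold (log2 -0.50, SE 0.11, limma adjusted p = 0.0407) and BOK higher by 1.41-fold (log2 0.49, SE 0.09, adjusted p = 0.0185). That comparison called 2.03% of all genes, 1.09% higher and 0.939% lower. An unadjusted p under 0.05 was found for these 2 members alone, beside 19.6% of all genes, and for 0 of 9 members were all treated arrays on 1 side of all DMSO arrays, beside 3.45% of all genes. The other 7 members did not pass, with log2 differences from -0.19 for BAX to 0.20 for PMAIP1. The BCL2 call was lost after quantile normalization (adjusted p = 0.0653) and cyclic loess normalization (adjusted p = 0.0596), and without DMSO replicate 2 (log2 -0.40, adjusted p = 0.16) or DMSO replicate 3 (adjusted p = 0.0897). Leaving out either enzalutamide array, replicates 1 or 2 of enzalutamide with PF-543, or replicates 2 or 3 of PF-543 also took it to adjusted p from 0.0502 to 0.0604. The BOK call was lost without DMSO replicate 1 (adjusted p = 0.069) or DMSO replicate 2 (adjusted p = 0.0799). BCL2 was dim, near the first quartile of all probe sets, which was 4.57 to 4.63 over the treated arrays and 4.65 to 4.69 over those of DMSO. The summed level of the 4 measured stromal markers, of which COL1A2 was the brightest, was likewise 9.10 to 9.58 (log2) over the treated arrays and 9.57 to 9.93 over those of DMSO, with 1 of the 4 called lower in this comparison, COL1A2 (log2 -0.45, adjusted p = 0.0304). The part of either shift in the BCL2 difference was not tested beyond the normalizations named. Without DMSO arrays BCL2 differed by log2 -0.11 when PF-543 was added to enzalutamide (95% interval -0.43 to 0.22, adjusted p = 0.904) and by 0.10 when ABC294640 was added (95% interval -0.23 to 0.42, adjusted p = 0.945).

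The window of BCL2 (RefSeq, GRCh38.p14, chr18:63319770-63320019, minus strand, 70% G and C) is shown because BCL2 was called lower when the treated groups were set as 1 mean against DMSO. It lies inside the listed gene, before the start that the table uses, and held none of the motifs either.
BCL2: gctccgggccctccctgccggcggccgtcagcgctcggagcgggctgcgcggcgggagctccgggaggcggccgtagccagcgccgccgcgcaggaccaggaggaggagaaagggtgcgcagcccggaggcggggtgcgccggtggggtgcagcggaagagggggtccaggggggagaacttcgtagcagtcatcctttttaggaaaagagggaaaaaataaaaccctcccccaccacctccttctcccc

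BCL2L1, whose long form is the prosurvival protein BCL-XL, was highest with PF-543. It read 9.83, 9.73 and 9.69 with enzalutamide and PF-543, 9.61, 9.68 and 9.86 with enzalutamide and ABC294640, 9.65 and 9.46 with enzalutamide, 9.80, 9.91 and 10.01 with PF-543, 9.73 with ABC294640, and 9.52, 9.48 and 9.73 with DMSO. The PF-543 arrays were above every DMSO array, and arrays of the other treated groups with replicates overlapped with DMSO. The PF-543 mean was 9.91 ± 0.11 and the DMSO mean 9.58 ± 0.13 (SD, n = 3 each), a difference of log2 0.33 (SE 0.11, unadjusted p = 0.00798, limma adjusted p = 0.165) that was not called. In that comparison 0.565% of all genes were called. On top of enzalutamide the PF-543 difference was 0.20 (95% interval -0.06 to 0.45, adjusted p = 0.741), and the arrays of the combination were above those of enzalutamide alone.

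MCL1 is a short-lived prosurvival protein that the NOXA protein marks for removal. It read 12.85, 12.79 and 12.67 with enzalutamide and PF-543, 12.77, 12.78 and 12.82 with enzalutamide and ABC294640, 12.84 and 12.74 with enzalutamide, 12.86, 12.95 and 12.91 with PF-543, 12.95 with ABC294640, and 12.72, 12.64 and 12.77 with DMSO. The spread within groups was 0.06 (SD pooled over groups), against a median of 0.18 over all genes, so MCL1 differences had narrow intervals. PF-543 alone was at log2 0.20 over DMSO (95% interval 0.02 to 0.37, limma adjusted p = 0.275), with all 3 arrays above those of DMSO. PF-543 added to enzalutamide left MCL1 at log2 -0.02 (95% interval -0.22 to 0.18, adjusted p = 0.979), and ABC294640 added to enzalutamide left it at 0 (95% interval -0.20 to 0.20). With the inhibitors in the cells, enzalutamide was at log2 -0.15 (95% interval -0.30 to 0.005, unadjusted p = 0.0568, adjusted p = 0.65).

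**Figure D2:**
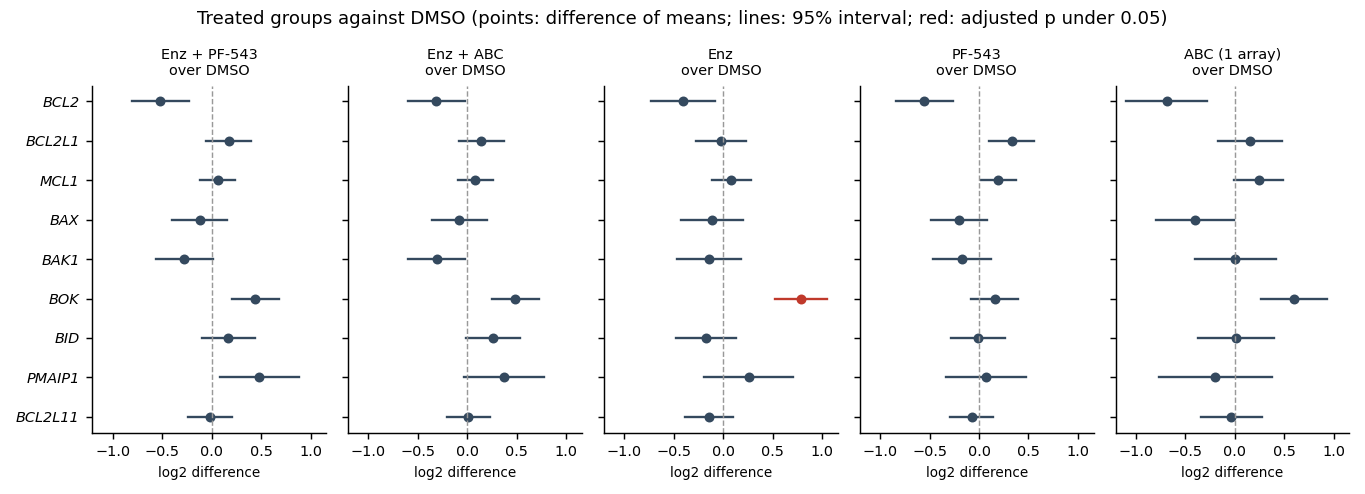
Log2 difference from DMSO (horizontal axis) of the 9 measured members in the 5 treated groups, with 95% intervals from the limma fit to all 15 arrays (Enz, enzalutamide; ABC, ABC294640). BOK with enzalutamide, in red, is the point past an adjusted p of 0.05, and BCL2 lies below 0 in all panels, at -0.31 to -0.69.

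PMAIP1 was the BH3-only gene with the widest range. PMAIP1 encodes NOXA, which binds MCL1, and its transcription is known to respond to ATF4. It read 6.7, 6.47 and 6.03 with enzalutamide and PF-543, 6.69, 6.07 and 6.11 with enzalutamide and ABC294640, 6.35 and 6.00 with enzalutamide, 6.00, 5.98 and 5.98 with PF-543, 5.72 with ABC294640, and 6.08, 5.81 and 5.86 with DMSO. The 3 groups with enzalutamide had the 3 highest means, and in each of them at least 1 array lay inside the DMSO range. On top of PF-543, enzalutamide placed every combination array above every PF-543 array, at 6.40 ± 0.34 with enzalutamide and PF-543 and 5.99 ± 0.01 with PF-543 (SD, n = 3 each; log2 0.41, SE 0.19, limma adjusted p = 0.595). That comparison called 0.311% of all genes, and 14.6% of all genes had arrays that did not overlap. The mean enzalutamide effect in inhibitor-treated cells was log2 0.49 (95% interval 0.14 to 0.84, unadjusted p = 0.00951, adjusted p = 0.378), where 0.384% of all genes were called. PMAIP1 was the only one of 9 members with an unadjusted p under 0.05 there, beside 7.9% of all genes. The combination with PF-543 was at log2 0.48 over DMSO (95% interval 0.08 to 0.89, adjusted p = 0.184), and enzalutamide alone at 0.26 (95% interval -0.19 to 0.71, adjusted p = 0.648).

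The upstream window of PMAIP1 (RefSeq, GRCh38.p14, chr18:59899746-59899995, plus strand, 72.8% G and C) is shown because stress factors known to act on this gene moved in the same cells, as described further on. It held no full match to the motifs, and partial sites were not searched.
PMAIP1: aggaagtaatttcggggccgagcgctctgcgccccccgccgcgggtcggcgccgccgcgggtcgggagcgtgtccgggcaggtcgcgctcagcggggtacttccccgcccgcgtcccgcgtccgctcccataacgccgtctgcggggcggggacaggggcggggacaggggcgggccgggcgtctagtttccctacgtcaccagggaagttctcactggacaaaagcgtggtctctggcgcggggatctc

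BID, which caspase-8 cuts to carry death receptor signals to mitochondria, was highest in the combinations. It read 11.14, 10.81 and 11.07 with enzalutamide and PF-543, 11.15, 11.17 and 10.96 with enzalutamide and ABC294640, 10.76 and 10.57 with enzalutamide, 10.92, 10.77 and 10.78 with PF-543, 10.85 with ABC294640, and 11.08, 10.75 and 10.68 with DMSO. All arrays of either combination were above both enzalutamide arrays, and overlapped with DMSO. Over enzalutamide alone, BID was at log2 0.34 with PF-543 added (95% interval 0.04 to 0.65, limma adjusted p = 0.587) and at 0.43 with ABC294640 added (95% interval 0.12 to 0.73, adjusted p = 0.612). These differences share the 2 enzalutamide arrays. BCL2L11, whose product BIM binds all prosurvival members, had the narrowest range. Its arrays lay between 9.71 and 10.06 in treated cells and between 9.81 and 10.15 with DMSO. Its group means spanned 0.15, a range that 6.73% of genes undercut. Its differences from DMSO ran from log2 -0.14 with enzalutamide to 0.01 with enzalutamide and ABC294640.

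Members whose arrays did not overlap with those of DMSO are counted here beside the share of all genes for which this held. They numbered 2 with enzalutamide and PF-543 (23.7% of all genes), 1 with enzalutamide and ABC294640 (19.2%), 2 with enzalutamide (28.1%), 4 with PF-543 (20.2%) and 5 with the 1 ABC294640 array (55%). Calls numbered 0 with enzalutamide and PF-543 (2.02% of all genes), enzalutamide and ABC294640 (0.701%), PF-543 (0.565%) and ABC294640 (0%). An unadjusted p under 0.05 was found for 3 of 9 members with enzalutamide and PF-543 (18.7% of all genes), enzalutamide and ABC294640 (16%), PF-543 (15.5%) and ABC294640 (9.57%), and for 2 of 9 with enzalutamide (12.9%). The median member difference from DMSO was log2 0.06 with enzalutamide and PF-543, 0.08 with enzalutamide and ABC294640, -0.11 with enzalutamide, -0.01 with PF-543 and 0.003 with ABC294640, beside medians of -0.01 over all genes in each of these comparisons. The range of the 6 group means exceeded that of 96.2% of genes for BOK, 92.3% for BCL2 and 92% for PMAIP1, and 23% for MCL1. The median range over all genes was 0.36, and the ABC294640 group entered these ranges as 1 array.

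Whether an inhibitor added to enzalutamide moved the family was read against enzalutamide alone. With PF-543 added, 0 of 9 members were called, beside 0.0283% of all genes. BID and BOK had unadjusted p under 0.05, as had 7.83% of all genes, with BOK at log2 -0.34 (95% interval -0.61 to -0.08, limma adjusted p = 0.514). With ABC294640 added, 0 of 9 members and 0% of all genes were called, and BID and BOK again had unadjusted p under 0.05, as had 6.78% of all genes, with BOK at -0.30 (95% interval -0.57 to -0.04, adjusted p = 0.685). For BOK, all arrays of either combination were below both enzalutamide arrays. Members whose arrays did not overlap numbered 3 with PF-543 added (24% of all genes) and 2 with ABC294640 added (20.7%). With enzalutamide added to PF-543, 0 of 9 members were called and BOK and PMAIP1 had an unadjusted p under 0.05, as had 8.27% of all genes. With enzalutamide added to the 1 ABC294640 array, 0 members were called and 0 had an unadjusted p under 0.05, beside 0.0792% and 6.95% of all genes. There PMAIP1 was at log2 0.57 (95% interval -0.0004 to 1.14, adjusted p = 0.718). For 6 of 9 members the combination arrays did not overlap with that array, as for 50% of all genes. The 3 ABC294640 combination arrays of PMAIP1 were above that array, as for 25.8% of all genes.

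Between the inhibitors at 15 µM, each with 10 µM enzalutamide, no member passed. With PF-543 in place of ABC294640, 0 of 9 members were called and 0 had an unadjusted p under 0.05, beside 0.0961% and 7.21% of all genes. The differences ran from log2 -0.20 for BCL2 (95% interval -0.49 to 0.09, limma adjusted p = 0.798) to 0.11 for PMAIP1 (95% interval -0.29 to 0.51, adjusted p = 0.928). Arrays of these groups overlapped for all 9 members, as for all but 12.4% of genes. The interval ran from -0.20 to 0.16 for MCL1, from -0.19 to 0.26 for BCL2L1 and from -0.25 to 0.19 for BCL2L11.

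**Figure D3:**
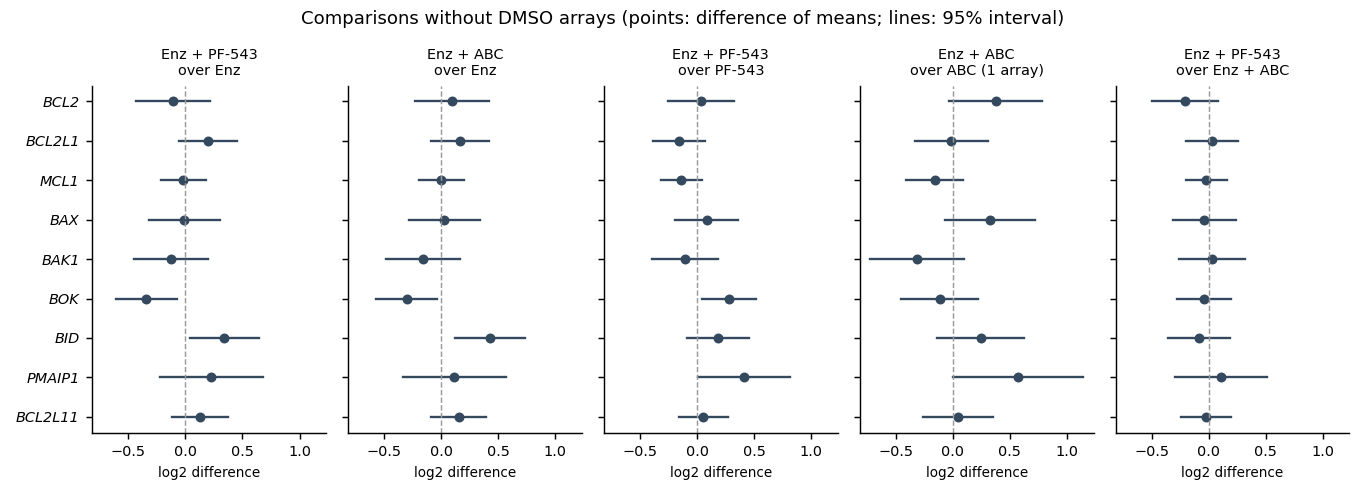
Log2 difference (horizontal axis) of the 9 measured members in 5 comparisons whose differences used no DMSO array (Enz for enzalutamide, ABC for ABC294640). The 95% intervals are from the limma fit to all 15 arrays. No member passed an adjusted p of 0.05, and in the last panel, PF-543 in place of ABC294640, differences lie between -0.20 and 0.11.

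The genes nearest to BOK and BCL2 in their pattern over the 6 groups were found by the root mean square difference of centred group means. For BOK they were WDR54, at a distance of 0.0799, BMP7 at 0.0815 and INPP5J at 0.0832 in log2 units. BMP7, a bone morphogenetic protein, averaged 8.39 with enzalutamide and PF-543, 8.43 with enzalutamide and ABC294640, 8.53 with enzalutamide, 8.16 with PF-543, 8.48 with ABC294640 and 7.89 with DMSO. Like BOK, these 3 genes had their highest mean with enzalutamide and their next highest with ABC294640, and PF-543 and DMSO gave the lowest means. Selection by pattern favours such a shared order, here and for BCL2 below. For BCL2 the nearest were the chemokine CCL19 at 0.0312, the T cell kinase ZAP70 at 0.0345 and the clathrin accessory protein NECAP2 at 0.0413. All of them were highest with DMSO and lowest with the 1 ABC294640 array. ZAP70 averaged 3.46 to 3.92 over the treated groups and 4.17 with DMSO, below the first quartile of all probe sets. CCL19 averaged 7.22 to 7.58 over the treated groups and 7.92 with DMSO. NECAP2 averaged 8.33 to 8.65 over the treated groups and 9.03 with DMSO, and both genes were brighter than the median probe set.

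**Figure D4:**
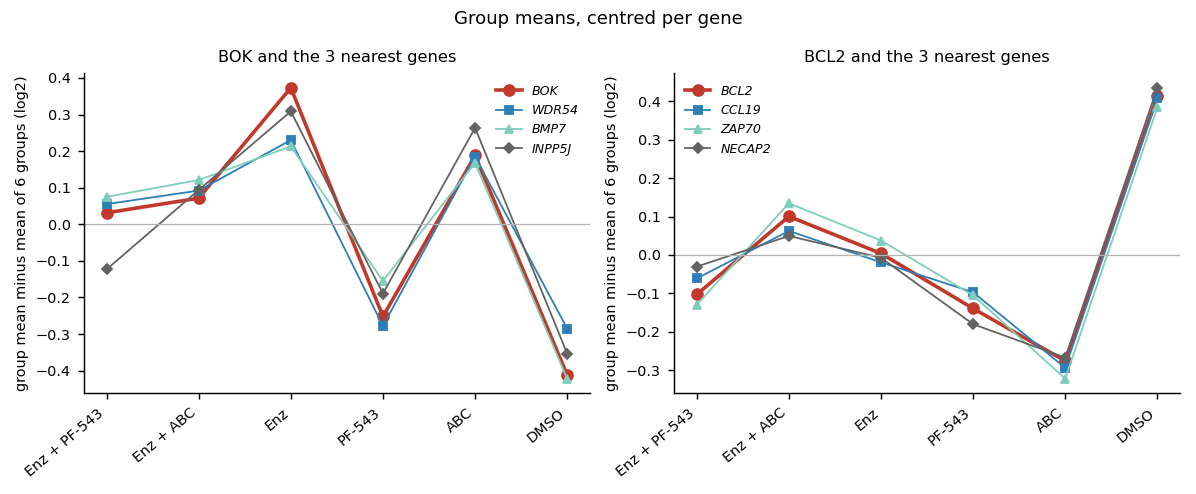
Group mean minus the mean of the 6 groups (vertical axis, log2 units) for BOK and its 3 nearest genes and for BCL2 and its 3 nearest genes, by group (Enz, enzalutamide; ABC, ABC294640). Lines join groups for reading and imply no order. BOK peaks with enzalutamide and is lowest with DMSO, and BCL2 is highest with DMSO.

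Other genes of the apoptosis pathway were read from 6 lists with 68 measured genes. They held further BCL2 family members, caspases with the apoptosome and death receptors, inhibitors of apoptosis, VDAC and related proteins, regulators of protein turnover, and transcription factors known to act on the family. Against DMSO, the combination with PF-543 had 4 of the 68 higher, 1 lower and 63 not passing, beside 1.12% of all genes higher and 0.905% lower. The 4 were all among the 12 measured transcription factors, whose median was log2 0.37 beside -0.01 over all genes. The lists were chosen with earlier results of these data known, so these counts and this median are not independent support. The gene called lower was BCL2L12, an atypical family member, 1 of 14 on its list. Of 13 caspase and death receptor genes, 9 inhibitors of apoptosis, 8 VDAC-related genes and 12 turnover genes, 0 were called in any comparison. Over all genes the share called was at most 2.03%. Per comparison, 0 to 4 genes of each of these lists without a call had an unadjusted p under 0.05 in limma, beside 6.78% to 19.6% of all genes. The transcription factors and the further BCL2 family members are left out of this range. Such a p was found for 4 of the 8 VDAC-related genes with enzalutamide and ABC294640 against DMSO, beside 16% of all genes.

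DDIT3 (CHOP), a stress factor known to raise BCL2L11 and to lower BCL2, was the gene of these lists with the largest called change. It read 9.04, 9.53 and 9.31 with enzalutamide and PF-543, 8.76, 8.70 and 8.18 with enzalutamide and ABC294640, 8.56 and 8.36 with enzalutamide, 7.73, 7.33 and 7.90 with PF-543, 7.76 with ABC294640, and 7.80, 7.74 and 7.36 with DMSO. Every array with enzalutamide was above every array without it, a split whose share over all genes is not given here. Against DMSO, DDIT3 was called with enzalutamide and PF-543 (log2 1.66, limma adjusted p = 0.00114). It was not called with enzalutamide and ABC294640 (log2 0.91, adjusted p = 0.0535) or with enzalutamide alone (log2 0.83, adjusted p = 0.151). On top of PF-543, enzalutamide raised DDIT3 3.12-fold (log2 1.64, SE 0.19, limma adjusted p = 0.00167), and in inhibitor-treated cells on average 2.32-fold (log2 1.21, SE 0.17, adjusted p = 0.00517). In the same comparisons BCL2L11 was at log2 0.06 (95% interval -0.16 to 0.28) and 0.05 (95% interval -0.14 to 0.24), and BCL2 at 0.04 (95% interval -0.25 to 0.33) and 0.21 (95% interval -0.04 to 0.46). With enzalutamide and PF-543 against DMSO, BCL2L11 was at log2 -0.02 and BCL2 at -0.52, neither called. In the mean of the 5 treated groups against DMSO, DDIT3 was called higher (log2 0.71) and BCL2 lower (log2 -0.50). BCL2L11 was at -0.05 there. Whether DDIT3 acted on either gene was not tested.

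ATF3 and ATF4, factors of the integrated stress response known to act on PMAIP1, were also higher in the PF-543 combination than in DMSO. ATF3 read 8.42, 8.36 and 8.39 with enzalutamide and PF-543, 7.61, 7.68 and 7.43 with enzalutamide and ABC294640, 7.22 and 7.46 with enzalutamide, 8.25, 7.78 and 8.25 with PF-543, 7.61 with ABC294640, and 7.68, 7.54 and 7.5 with DMSO. All arrays with PF-543 were above all arrays without it, and the share of all genes with this split is not given here either. ATF3 in that combination was 2.07-fold over enzalutamide alone (log2 1.05, SE 0.14, limma adjusted p = 0.0305) and 1.76-fold over the combination with ABC294640 (log2 0.82, SE 0.13, adjusted p = 0.0358). PMAIP1 was at log2 0.22 and 0.11 in these comparisons, neither called. ATF4 averaged 14.44 with enzalutamide and PF-543 and 14.06 with DMSO (log2 0.38, SE 0.08, adjusted p = 0.0335), and differed by 0.07 from enzalutamide alone (adjusted p = 0.894).

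MYC, which can prime cells for apoptosis, was above DMSO with enzalutamide and PF-543 (log2 0.36, limma adjusted p = 0.0384), with enzalutamide and ABC294640 (0.57, adjusted p = 0.00659) and with enzalutamide (0.58, adjusted p = 0.0134), and at 0.20 in the enzalutamide effect without DMSO arrays (adjusted p = 0.422). In the mean of the 5 treated groups against DMSO, MYC was also called higher (log2 0.41), with all treated arrays above all DMSO arrays. HIF1A, the hypoxia factor, was above DMSO with PF-543 (log2 0.45, adjusted p = 0.0438), and at 0.21 when PF-543 was added to enzalutamide (adjusted p = 0.656). BCL2L12 read 10.52, 10.79 and 10.70 with enzalutamide and PF-543, against 11.24, 11.23 and 11.26 with DMSO (log2 -0.57, SE 0.10, adjusted p = 0.0156). BCL2L12 was lower than DMSO in all 12 treated arrays, which lay between 10.52 and 10.98. All treated arrays were on 1 side of all DMSO arrays for 3.45% of all genes. Its mean over the 5 treated groups was log2 -0.41 from DMSO (adjusted p = 0.0306), and it was at -0.24 when PF-543 was added to enzalutamide (adjusted p = 0.659).

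**Figure D5:**
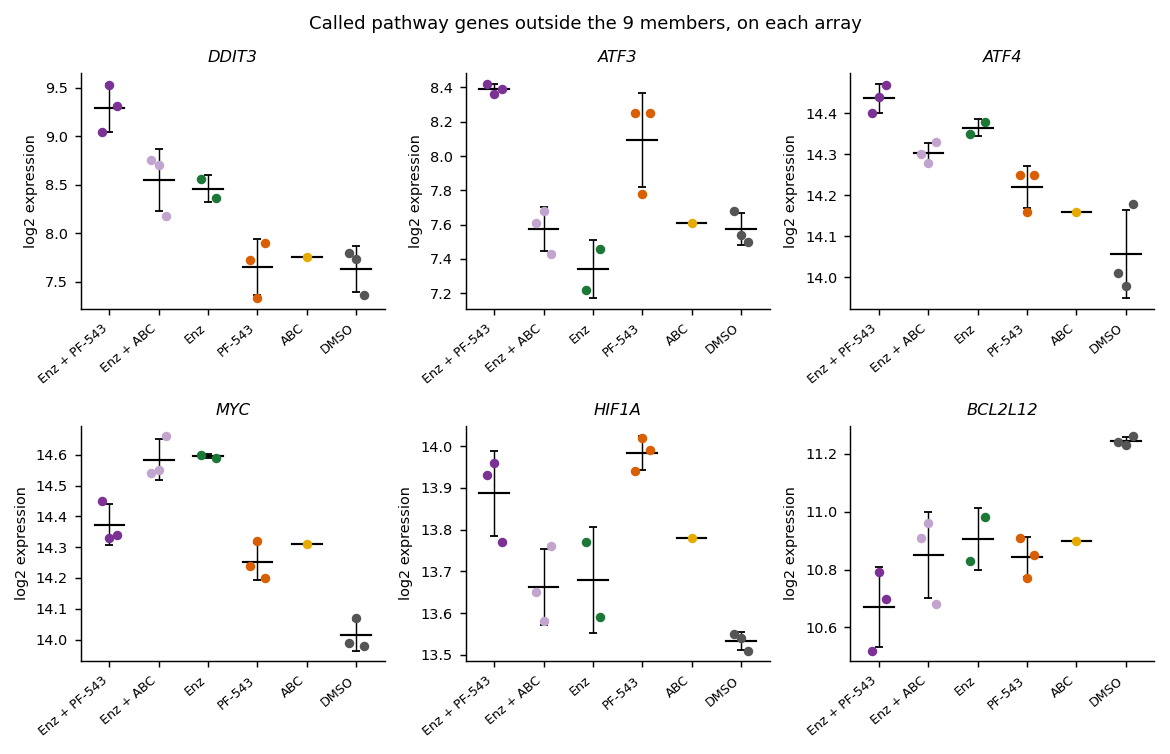
Log2 expression (vertical axis, a scale per gene) on each of the 15 arrays for the 6 pathway genes called in at least 1 comparison, by group (Enz, enzalutamide; ABC, ABC294640). Points are arrays, horizontal bars are group means and whiskers are SD, with no whisker for the 1 ABC294640 array. DDIT3 is higher on all 8 arrays with enzalutamide than on the 7 without, and BCL2L12 is lower on all treated arrays than on the DMSO arrays. The share of all genes with the DDIT3 split is not given here.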

How the data were processed

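Labelled targets made from 100 ng of total RNA were hybridised to 15 arrays, per the labels' protocols. The authors deposited log2 expression, 1 value per probe set, after RMA in Transcriptome Analysis Console 4.02, per the submitters' processing notes. The RMA variant and genome build are not stated in the sources at hand. RMA equalises arrays, which hides a shift common to most genes, and no detection calls were used.

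Groups came from the titles. Of 21448 probe sets, 17709 had 1 gene symbol, 0 had several and 3739 were unnamed. The brightest probe set stood for each gene, and each member had 1. limma 3.58.1 in R 4.3.3 fitted a mean per group to all arrays (9 residual and 3.82 prior degrees of freedom) with 14 contrasts, and was checked on simulated data. The mean of the treated groups and the ABC294640 interaction were added after the values were seen. The single ABC294640 array was lent the spread of the other groups, and the number of arrays limits the precision. Members and lists were chosen with earlier results of these data known.

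Named were all measured members, up to 4 called genes per list and comparison, and the 3 genes nearest in pattern to each called member. Alternatives were 3 normalizations, a filter on dim genes, another prior, only the arrays compared, the replicate number as a block, and leaving out each array. Promoter windows came from RefSeq for 8 members, with 1 start per gene. Figures were drawn with matplotlib 3.10.9.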

Additional observations from a re-analysis of the deposited data

How the results depend on the processing

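With enzalutamide against DMSO the 1 member called, BOK, became 0 members when only the arrays of that comparison were fitted (limma adjusted p = 0.287) and with the replicate number as a block (adjusted p = 0.0519), and the count ranged from 0 to 1 when an array was left out. Replicate numbers did not pair the samples: deviations of same-numbered arrays correlated at -0.0369 to 0.0717 over 26 pairs, 0 of them over 0.1. Without the dimmest 25% of genes, the count became 2 for enzalutamide with PF-543 against DMSO (BCL2, adjusted p = 0.0448, and BOK, adjusted p = 0.0363) and 1 for enzalutamide with ABC294640 against DMSO (BOK, adjusted p = 0.0434), in both cases against 0 with all genes, and with fewer genes tested. The share of all genes called under this filter is not given here, so these gains cannot be read as particular to BCL2 and BOK. For the mean of the treated groups against DMSO, 2 members became 1 after quantile or cyclic loess normalization, and 0 to 2 when an array was left out. The cause of the other changes was not tested.

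Of 1674 values of members under an alternative, 1653 kept direction and side of the threshold or were uncalled on both sides, 18 lost and 3 gained a call, and 0 called values changed sign. Among 1619 uncalled on both sides, 56 had the opposite sign. Over all genes, counts moved more. The 55 genes called with enzalutamide ranged from 3 to 266, the 100 with PF-543 from 9 to 547, the 358 with enzalutamide and PF-543 from 31 to 1121, and the 124 with enzalutamide and ABC294640 from 23 to 599. The low ends came from fitting only the arrays compared and the high ends from the robust and trended prior. No member has a second probe set, so that alternative gave no value. BCL2 and PMAIP1 were dimmer than the median probe set, at 6.71 to 6.76 over the arrays, and BOK was brighter.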
